A study of Drosophila melanogaster with 6 samples.

Results

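The channels that set the electrical excitability of clock neurons are described here from sorted cells of adult Drosophila melanogaster brains, with and without knockdown of Prp3, a gene whose product belongs to the spliceosome. The set holds 37 of the 17868 genes in the count files. It was chosen by gene symbol and covers voltage-gated sodium, calcium and potassium channels, the sodium leak channel, the hyperpolarization-activated channel and 4 transient receptor potential (TRP) channels, each with its auxiliary subunits. The symbols of 36 members stand in the files as written, and Nlf-1 is listed there under its current name Mid1. Both groups carried the Clk-GAL4 driver, active in clock neurons, together with a transgene for a nuclear green fluorescent protein (GFP). Control flies, labelled wildtype, had the genotype ClkGAL4, UAS-GFP-NLS/+ and no hairpin transgene. Prp3-RNAi flies carried UAS-Prp3-RNAi opposite the same driver chromosome. For 5 days before collection the flies saw 12 h of light and 12 h of darkness a day. Cells were collected at zeitgeber time 14, that is 14 h after lights-on, and about 2000 GFP-positive, DAPI-negative cells were sorted for each of the 3 libraries per group. The labels give neither the age in days nor the sex of the flies. They pair each control library with 1 Prp3-RNAi library without saying what a pair shares, so p-values measure the spread between these libraries, which may be technical.

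Sodium channels carry the rising phase of action potentials, calcium channels couple spikes to transmitter and peptide release, and potassium channels end spikes and set their spacing. The sodium leak channel narrow abdomen holds the resting membrane of clock neurons closer to threshold, and flies without it have weak daily rhythms. Firing of clock neurons changes with the time of day, and several potassium channels and the leak channel are known to take part in that change.

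The libraries held 24477244 to 32551739 gene counts. Levels are given as CPM, read counts relative to library size after TMM normalization (a trimmed mean of ratios), and genes are compared with one another only per kb of annotated exon. The clock genes tim and Pdp1 were present at 557 to 830 CPM and 1219 to 1659 CPM, and the 8 clock genes checked, of which those 2 make up most, summed to 2367 to 3268 CPM in control and 2179 to 2535 CPM under Prp3-RNAi. Of these 8, 3 had a fold change above 0, with a median log2 fold change of -0.19. cry, the blue-light receptor of clock neurons, went from 222, 190 and 105 CPM to 85.2, 81.1 and 90.9 CPM (log2 fold change -0.95, SE 0.26, unadjusted p 0.0128, BH-adjusted p 0.428 in edgeR), lower in 3 of 3 pairs, and the groups of vri did not overlap either, with control higher. Glia markers (10 of 10 found) summed to 184 to 649 CPM in control and 207 to 436 CPM under Prp3-RNAi. The marker repo, the defining glial transcription factor, was at 1.56 CPM or less. Others were well above it, with Gs2 at 61.2 to 502 CPM and Eaat1 at 27.2 to 98.3 CPM over all libraries. Photoreceptor markers summed to 281 to 376 CPM in control and 243 to 411 CPM with the hairpin, of which norpA alone gave 206 to 354 CPM. Of the 10 tested, 5 had a fold change above 0. As higher, 2 reached an unadjusted p below 0.05, where 4.71% of all tested genes did. These were ninaC (0.0313, 0.0707 and 0.217 CPM against 7.54, 2 and 3.01 CPM) and Arr2 (4.23, 0 and 6.76 CPM against 23, 1.9 and 23.5 CPM). Among those below 0, ninaE had 54, 0 and 43.5 CPM against 0.133, 2.95 and 40.3 CPM (log2 fold change -0.40, SE 2.88). The part of these markers in the channel values was not tested. Those of muscle, and of fat body with blood cells, each summed to 2.82 CPM or less, apart from control library 3 with 46.1 CPM for fat body and blood cells. The targeted gene Prp3 stood at 45.6, 68.8 and 29.4 CPM in controls 1 to 3 and at 27, 28.3 and 10.8 CPM in their Prp3-RNAi partners. Its log2 fold change was -1.16 (SE 0.24), lower in 3 of 3 pairs, and did not pass the correction over all genes (edgeR's quasi-likelihood test, Benjamini-Hochberg or BH-adjusted p 0.384). DESeq2 did call it (BH-adjusted p 0.00665). In such bulk samples, fewer cells of a type and less RNA per cell cannot be told apart.

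Most of the channel genes were well expressed in control neurons. Of the 37 members, 26 reached at least 50 CPM on average in control, and among those 26 the median coefficient of variation between control libraries was 14.7%, from 1.73% for Sh to 64.7% for Teh3. Over the 3385 tested genes at that level it was 18.8%. The highest level per length was that of qvr at 175 ± 26.5 CPM per kb (SD, n = 3), the gene of sleepless, a small membrane-anchored protein that promotes Shaker current and sleep. The sum of the strand columns of sei was 3.26 times the unstranded count used here, so its rank against qvr is uncertain. A group of 9 members followed at 36.8 to 54.2 CPM per kb, namely sei, Teh3, cac, Teh2, slo, Ih, Sh, para and SK. The spread between libraries of these 9, with an SD of up to 30.1 CPM per kb for Teh3, was larger than most of the steps between neighbours. At the low end, 6 members stood under 2.5 CPM per kb: KCNQ, Irk3, pain, Irk1, iav and pyx. Overlaps with other genes cover 62.2% of the exon length of Irk1. The strand columns of pain and pyx summed to 9.3 and 14.9 times their unstranded counts. The levels of these genes are therefore uncertain.

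**Figure D1:**
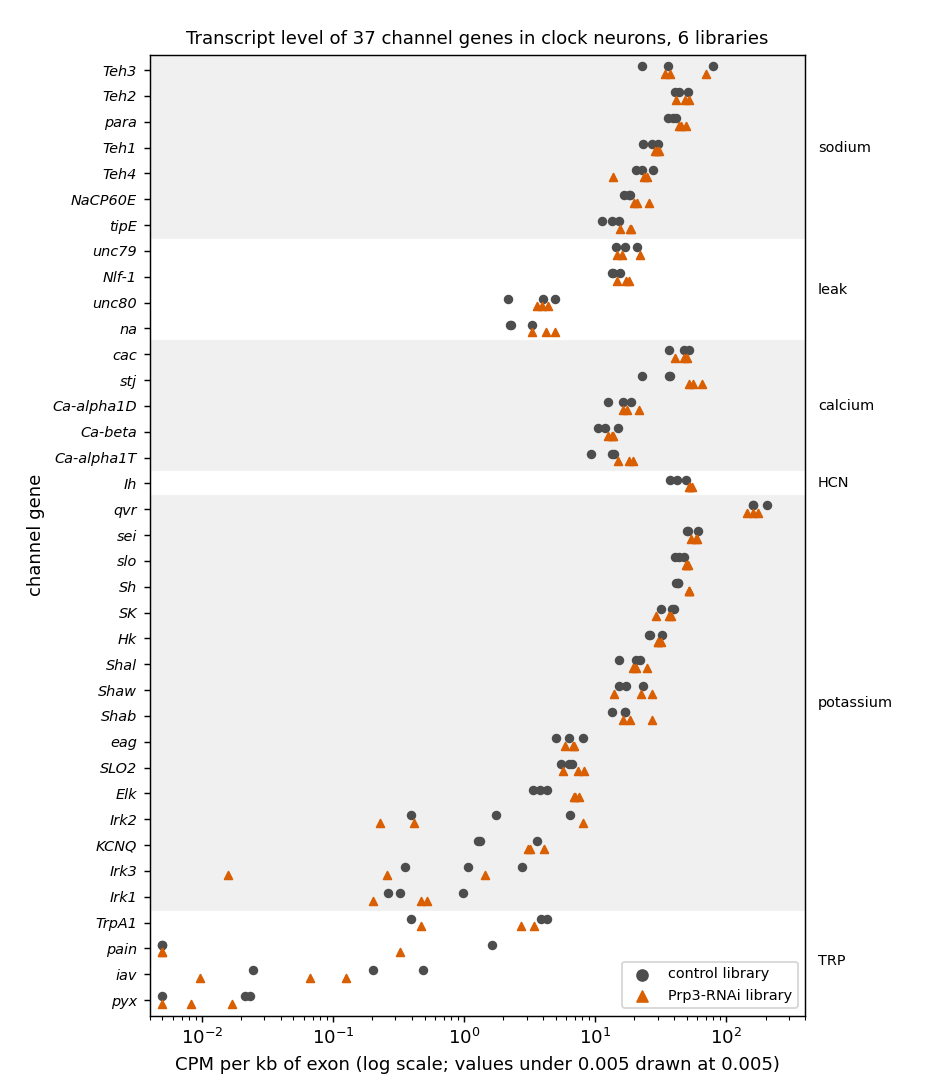
CPM per kb of exon (log scale) of the 37 channel genes in the 3 control libraries (circles) and the 3 Prp3-RNAi libraries (triangles), grouped by channel class and ordered by control mean; HCN is the hyperpolarization-activated channel. qvr lies farthest right at 175 CPM per kb in control, and the points of low members such as Irk3, TrpA1 and iav are spread widely.

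Among the tested members, transcripts were more often higher than lower in Prp3-RNAi, by small amounts and mainly at higher levels of expression, and no single gene passed the correction over all genes. Of the 37 members, 35 passed the filter on low counts, while pain and pyx did not. edgeR called 0 of the 35 at a BH-adjusted p below 0.05, and 0 (0%) of the 8708 genes tested. An unadjusted p below 0.05 was reached by 6 members, all higher with the hairpin: stj, Ca-alpha1T, Elk, Sh, Ih and NaCP60E. This was 17.1% of the members tested, where 4.71% of all tested genes reached that level as higher, 5.27% as lower and 9.98% in either direction. The count rests on the pairs: it was 3 (stj, Ca-alpha1T and Elk) with the pairs left out of the model and 3 (stj, Ca-alpha1T and Ih) without pair 2. The fitted fold change was above 0 for 27 of 35 members, against 50.9% of all tested genes, with a median log2 fold change of 0.16 against 0.01. Among the 26 members at 50 CPM or more over all libraries, 23 were above 0 with a median of 0.17, against 46.1% and -0.03 over the 3439 tested genes at that level. Of the 9 tested members under 50 CPM, 4 were above 0 with a median of -0.25, against 54% and 0.07 over the 5269 tested genes at that level. By pair the median over members was 0.25, 0.08 and 0.19, and the median over all tested genes was 0.00, 0.01 and -0.02. In 10 members every Prp3-RNAi library lay above every control library, which held for 6.27% of all tested genes, and in 0 members every one lay below, which held for 5.34%. Within pairs, 14 members were higher in all 3, against 17.5% of tested genes, and SK and iav were lower in all 3, against 17.6%. DESeq2 with the same pairs called 3 members, stj, Ca-alpha1T and Sh, where it called 4.46% of all genes with an adjusted p-value, 1.89% as higher.

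Together the 37 genes made up 7195, 7285 and 7096 CPM in controls 1 to 3 and 8437, 8249 and 7864 CPM in their Prp3-RNAi partners. The groups did not overlap in this sum. General neuronal markers overlapped between the groups: elav, nSyb, brp, Syt1 and fne summed to 3620 to 4594 CPM in control and 3482 to 4476 CPM under Prp3-RNAi, 2 of the 5 had a fold change above 0, and their median was -0.03. Of 8 peptide genes that mark subsets of clock neurons, 2 had a fold change above 0. As lower, 3 (Trissin, CNMa and Dh31) reached an unadjusted p below 0.05, where 5.27% of all tested genes did. Trissin went from 2356, 718 and 1687 CPM to 0, 68.3 and 7.57 CPM. CNMa went from 1520, 1334 and 1090 CPM to 540, 218 and 612 CPM. The 8 summed to 11815 to 35157 CPM in control and 6527 to 29417 CPM under Prp3-RNAi. Pdf, the peptide of lateral clock neurons, was at 15942, 2566 and 17385 CPM in control and 302, 155 and 19961 CPM under Prp3-RNAi. The part of these subsets in the channel values was not tested.

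**Figure D2:**
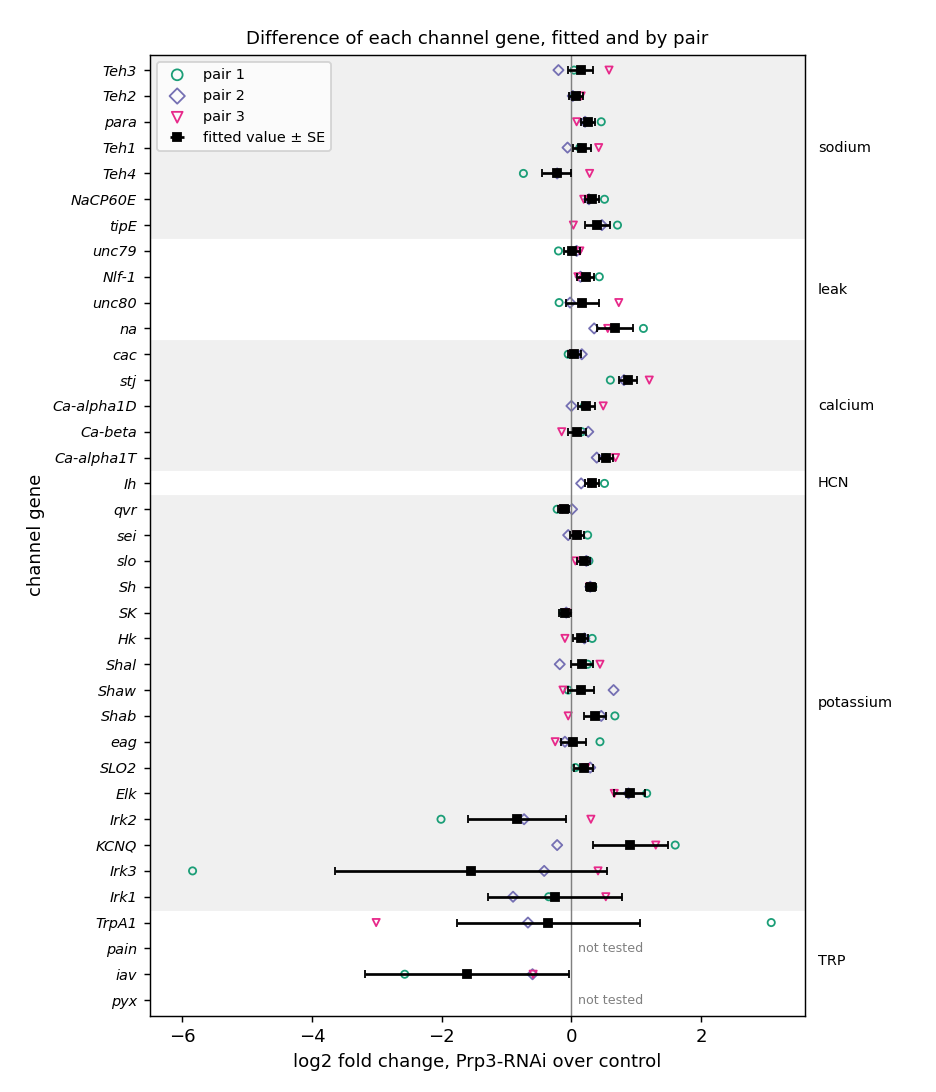
Log2 fold change of each channel gene, Prp3-RNAi over control, as the edgeR fit with pairs (black squares, bars are ± SE) and as the difference within each of the 3 pairs (open symbols). Most fitted values lie slightly right of 0. Among members with an SE of 0.24 or less, stj and Elk lie farthest right. The 6 tested members lowest in control CPM have an SE from 0.58 to 2.10.

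Among calcium channel genes the clearest difference was in straightjacket (stj), the alpha2delta subunit that brings the presynaptic channel Cacophony to release sites. stj (chromosome 2R, 13805794 to 13819571, plus strand, build BDGP6.54) had 231, 234 and 143 CPM in controls 1 to 3 and 351, 409 and 329 CPM in their Prp3-RNAi partners. All Prp3-RNAi libraries lay above all control libraries, and control library 3 was lowest. Its level was 1.83 times that of control, a log2 fold change of 0.87 (SE 0.14), with pair differences of 0.60, 0.81 and 1.20. In edgeR its unadjusted p was 0.0015 and its BH-adjusted p 0.367. DESeq2 called stj (log2 fold change 0.86, BH-adjusted p 5.31e-06), and over the 10 alternatives BH-adjusted p ran from there to 0.809. stj had the smallest unadjusted p of the 35 members tested.

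Ca-alpha1T (chromosome X, 6104085 to 6192483, minus strand) codes for the pore of the low-voltage-activated T-type calcium channel, which shapes burst firing and is known for its part in fly sleep. It had 177, 183 and 123 CPM in control and 254, 239 and 198 CPM under Prp3-RNAi, again without overlap and with control library 3 lowest. The log2 fold change was 0.53 (SE 0.11), with 0.53, 0.39 and 0.68 in the pairs. BH-adjusted p was 0.394 in edgeR and 0.0101 in DESeq2, which called it, and reached 0.981 in edgeR without the pairs.

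The remaining calcium channel genes had smaller fold changes. cac, the pore of the channel that triggers transmitter release and the most abundant of the class per length (45.4 ± 7.92 CPM per kb, SD, n = 3), had 623, 438 and 565 CPM in control and 601, 490 and 567 CPM under Prp3-RNAi. These groups overlapped fully, and the log2 fold change was 0.04 (SE 0.10). Ca-alpha1D, the L-type pore, had 166 ± 32.1 CPM in control and 194 ± 28.2 CPM under Prp3-RNAi (SD, n = 3 each), a log2 fold change of 0.23 (SE 0.13). Ca-beta, the cytosolic subunit that helps the pore reach the membrane, had a log2 fold change of 0.09 (SE 0.14). For cac, Ca-alpha1D and Ca-beta, BH-adjusted p in edgeR was 0.623 to 0.927.

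**Figure D3:**
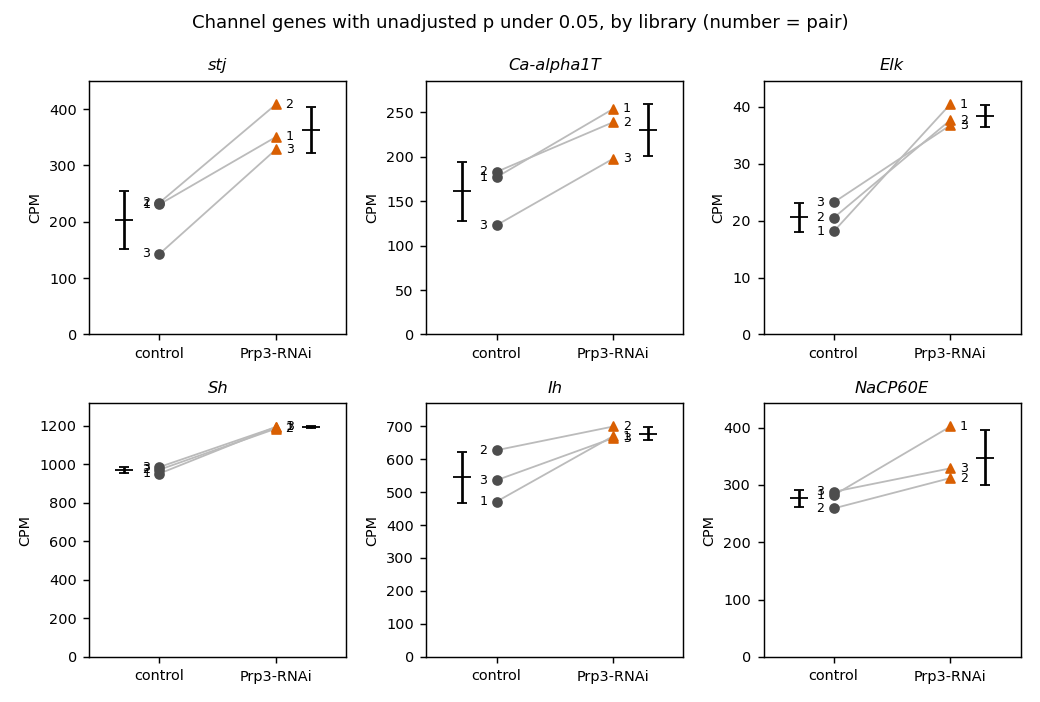
CPM of the 6 channel genes with an unadjusted p below 0.05, by group, with grey lines joining the libraries of a pair (numbered) and bars for mean ± SD (n = 3). In each panel every Prp3-RNAi library lies above every control library, and for Sh the libraries of a group nearly coincide.

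Potassium channel genes held 2 of the 6. Shaker (Sh; chromosome X, 17924307 to 18063247, minus strand) codes for the pore of a fast inactivating current that repolarizes spikes, and mutants sleep little. It had 952, 972 and 986 CPM in control and 1195, 1186 and 1194 CPM under Prp3-RNAi. The libraries within each group were almost equal, and the groups did not overlap. The step was small but even, a log2 fold change of 0.30 (SE 0.08) with 0.33, 0.29 and 0.28 in the pairs. BH-adjusted p was 0.428 in edgeR and 0.00918 in DESeq2, and it reached 0.999 in edgeR without the pairs.

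Elk (chromosome 2R, 17873939 to 17926695, plus strand), a member of the ether-a-go-go family of voltage-gated channels, had 18.1, 20.5 and 23.2 CPM in control and 40.5, 37.7 and 36.8 CPM under Prp3-RNAi. It was higher in all 3 pairs, by 1.16, 0.88 and 0.66, and the ranges were well apart. At 1.87 times control (log2 fold change 0.90, SE 0.24) it was similar in size to stj but had far fewer reads. edgeR gave a BH-adjusted p of 0.428, and DESeq2 gave 0.0736. Of its relatives, eag had a log2 fold change of 0.03 (SE 0.19) and sei, known for seizures at high temperature, 0.09 (SE 0.11). gammaSnap1 and ppk29 on the other strand overlap 14.6% of the exon length of sei. The libraries do not mark strand, so reads there cannot be assigned, and the sum of the strand columns was 3.26 times the unstranded count of sei, which makes its level uncertain.

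The partners of Shaker had fold changes closer to 0. qvr had 1050, 815 and 817 CPM in control and 899, 819 and 743 CPM under Prp3-RNAi, overlapping ranges with a log2 fold change of -0.12 (SE 0.09). Hyperkinetic (Hk), the cytosolic beta subunit of Shaker channels, had 302 ± 40.1 CPM in control and 330 ± 11.2 CPM under Prp3-RNAi (SD, n = 3 each), a log2 fold change of 0.14 (SE 0.12). It overlaps an antisense RNA gene, and its strand columns summed to 1.27 times the unstranded count.

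Of the other Shaker relatives, Shab, the main delayed rectifier, had a log2 fold change of 0.36 (SE 0.17), with pair differences of 0.67, 0.46 and -0.05, so that pair 3 did not share the difference. Shal, which carries a fast transient current in cell bodies and dendrites, and Shaw, a channel open near rest, had log2 fold changes of 0.17 (SE 0.17) and 0.15 (SE 0.20). Among calcium- and sodium-gated channels, slo, the large-conductance channel with a known part in daily locomotor rhythms, had 415, 443 and 487 CPM in control and 501, 521 and 508 CPM under Prp3-RNAi. The slo groups did not overlap, yet the log2 fold change was only 0.19 (SE 0.10). SLO2 had a log2 fold change of 0.19 (SE 0.15). SK, the small-conductance channel, was lower in all 3 pairs by little, with a log2 fold change of -0.10 (SE 0.09). For these 6 genes BH-adjusted p in edgeR was 0.552 to 0.845.

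KCNQ, a slow voltage-gated channel, was expressed at a low level and varied between libraries, with 5.11, 14 and 4.98 CPM in control and 15.7, 12 and 12.4 CPM under Prp3-RNAi. Control library 2 lay within the Prp3-RNAi range, and the log2 fold change of 0.91 had an SE of 0.58. Other genes overlap 27.4% of its exon length, and its strand columns summed to 1.47 times the unstranded count. The inward rectifiers Irk1, Irk2 and Irk3, which stabilize the membrane near the potassium potential, were scarce. Irk1 had 1.06 to 5.2 CPM over the 6 libraries and a log2 fold change of -0.25 (SE 1.03). Overlaps with CG46310 on the same strand and cnc on the other cover 62.2% of the exon length of Irk1. Its strand columns summed to 1.04 times the unstranded count, but same-strand overlap stays unresolved there, so its level is uncertain. Irk3 had 5.76, 0.743 and 2.25 CPM in control and 0.0332, 0.54 and 3.01 CPM under Prp3-RNAi, where library 1 held a single read (1 count), and its log2 fold change was -1.55 (SE 2.10). That value rests on single libraries and on how reads were counted: it was -0.00 without pair 1, -3.12 without pair 2, -3.62 without pair 3 and -0.67 from the sum of the strand columns. Grip71 on the other strand overlaps 10.8% of its exon length.

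Irk2 differed more between pairs than between groups. It was not alone in this: Teh3 was highest in both libraries of pair 2, and pain had counts in pair 3 only. Irk2 had 4.35, 0.99 and 16.2 CPM in controls 1 to 3 and 1.03, 0.571 and 20.1 CPM in their Prp3-RNAi partners. Both libraries of pair 3 were highest, and they were also the ones highest in Pdf. Control library 1 was next in both genes, and Prp3-RNAi library 2 was lowest in both. The match was not full: control library 2 and Prp3-RNAi library 1 had nearly equal Irk2, at 0.99 and 1.03 CPM, but Pdf at 2566 and 302 CPM. Control library 1 had Pdf near that of pair 3, at 15942 CPM, with much less Irk2. Nor was the order particular to Pdf. The glia marker Gs2 was also highest in pair 3, at 502 and 257 CPM, with control library 1 next at 222 CPM. Its lowest library was control library 2, at 61.2 CPM. A link of Irk2 with either gene was not tested. The log2 fold change of Irk2 was -0.84 (SE 0.76), and it was -1.44 without pair 3 and 0.01 when the pairs were left out of the model.

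**Figure D4:**
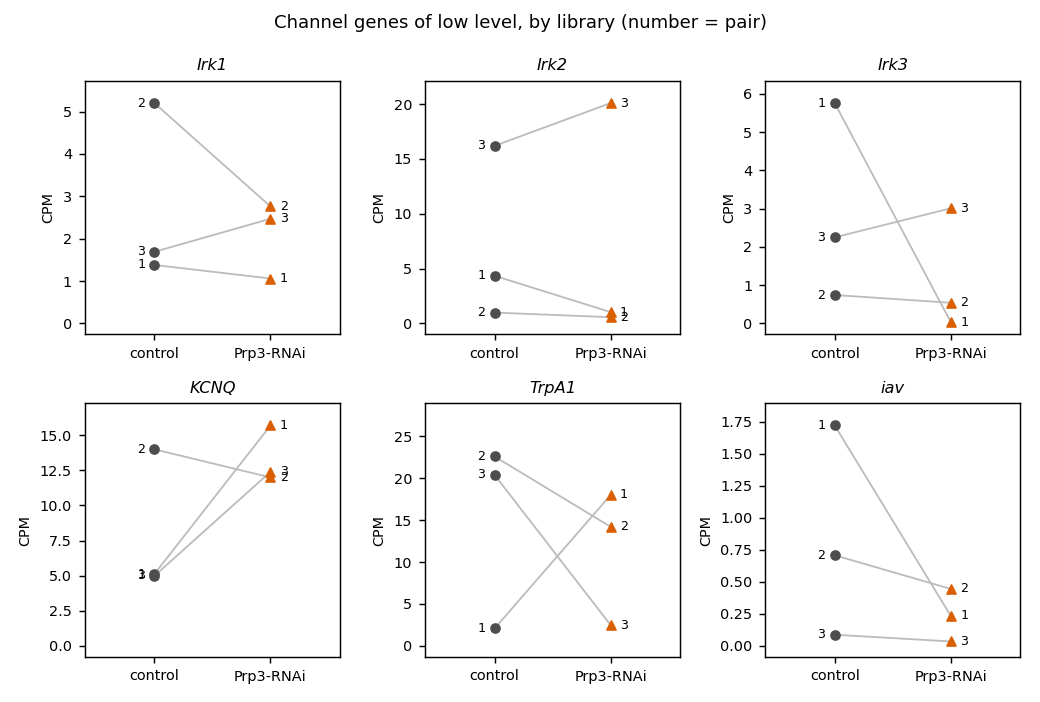
CPM of 6 channel genes of low level by group, with grey lines joining the libraries of a numbered pair. Irk2 is high in both libraries of pair 3, at 16.2 and 20.1 CPM, while the pairs of TrpA1 go in opposite directions.

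Of the 7 sodium channel genes, 6 had a small fold change above 0 and Teh4 one below. para (chromosome X, 16455027 to 16533096, minus strand), the pore of the channel behind action potentials in the fly, had 584, 643 and 674 CPM in control and 801, 742 and 712 CPM under Prp3-RNAi. The groups did not overlap, but the pair differences were uneven, at 0.46, 0.21 and 0.08. edgeR gave a log2 fold change of 0.25 (SE 0.11), an unadjusted p of 0.0722 and a BH-adjusted p of 0.546. NaCP60E (chromosome 2R, 24891614 to 24921677, plus strand) codes for a para relative that conducts calcium as well. It had 282, 259 and 288 CPM in control and 402, 312 and 329 CPM under Prp3-RNAi, a log2 fold change of 0.32 (SE 0.11). Prp3-RNAi library 1 was the highest, and BH-adjusted p was 0.47 in edgeR.

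The auxiliary subunits of para are the TipE family, membrane proteins that raise its current and tune its inactivation. Teh4, Teh3, Teh2 and tipE lie within 18930 bp of chromosome 3L, and Teh3 lies inside Teh2 on the same strand, so reads over their shared exons are uncertain. tipE had 46.1, 55.5 and 62.6 CPM in control and 75.3, 76.8 and 63.7 CPM under Prp3-RNAi, a log2 fold change of 0.40 (SE 0.19). The groups met without overlap, and in pair 3 tipE differed by only 0.03. CG18675 on the same strand overlaps 19% of the exon length of tipE. Teh3, the member of the class with the highest level per length, had 57.2, 127 and 36.4 CPM in control and 58.7, 111 and 54.4 CPM under Prp3-RNAi. Its libraries of pair 2 were highest in both groups, and the log2 fold change was 0.14 (SE 0.20). For Teh1, Teh2 and Teh4 it was 0.16 (SE 0.14), 0.07 (SE 0.11) and -0.23 (SE 0.23). For tipE and Teh1 to Teh4, BH-adjusted p in edgeR was 0.553 to 0.872.

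The pore gene of the sodium leak channel was scarcer per length than unc79 and Nlf-1 and close to unc80. narrow abdomen (na; chromosome X, 14266367 to 14277416, plus strand) stood at 2.62 ± 0.601 CPM per kb in control (SD, n = 3), while unc79, Nlf-1 and unc80 stood at 17.4, 14.2 and 3.7 CPM per kb, the last with an SD of 1.41. Under Prp3-RNAi, na and unc80 stood at 4.17 and 3.96 CPM per kb. na had 18.1, 26.1 and 17.7 CPM in control and 39.2, 33.2 and 26.2 CPM under Prp3-RNAi. The lowest Prp3-RNAi library lay only just above the highest control library. The log2 fold change was 0.67 (SE 0.28), with 1.11, 0.35 and 0.56 in the pairs. In edgeR its unadjusted p was 0.0551 and its BH-adjusted p 0.514. unc79, a large partner needed for a stable channel complex, had 172, 212 and 148 CPM in control and 150, 225 and 163 CPM under Prp3-RNAi. Its ranges overlapped, with a log2 fold change of 0.01 (SE 0.12). unc80, the second large partner, had a log2 fold change of 0.17 (SE 0.25), and Nlf-1, which helps the channel leave the endoplasmic reticulum and whose level is under clock control, 0.22 (SE 0.13).

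Ih (chromosome 2R, 14276130 to 14300095, plus strand) codes for the only hyperpolarization-activated cation channel of the fly, which supports bursting of lateral clock neurons. It had 471, 627 and 536 CPM in control and 670, 699 and 664 CPM under Prp3-RNAi. Control library 2 came close to the Prp3-RNAi range without entering it. The log2 fold change was 0.32 (SE 0.11), with 0.51, 0.15 and 0.31 in the pairs, and BH-adjusted p was 0.468 in edgeR and 0.0823 in DESeq2.

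Among the TRP channels, TrpA1, a warmth and irritant sensor, had 2.07, 22.6 and 20.4 CPM in control and 18, 14.2 and 2.47 CPM under Prp3-RNAi. Pair 1 differed by 3.08 and pair 3 by -3.01, and the log2 fold change was -0.36 (SE 1.41). iav, a subunit of the hearing channel of chordotonal neurons, did not exceed 1.72 CPM, with a log2 fold change of -1.61 (SE 1.57), or -0.90 without pair 1 and -0.70 from the sum of the strand columns. pain, a nociception channel, had 115 counts in control library 3 and 29 in Prp3-RNAi library 3 and 0 in the other 4 libraries. There, by counting error alone, 0 allows up to 3 counts, or 0.0922 to 0.107 CPM before TMM normalization. The exons of pain overlap those of NaCP60E, and its strand columns summed to 9.3 times its unstranded count. pyx, another heat-sensing channel, had 3 counts or fewer in every library.

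Within-library ratios of an auxiliary subunit to its pore do not depend on the scaling between libraries. They were taken as CPM per kb for 12 such pairs of genes, chosen after the values of the genes had been seen. The ratio of stj to cac was 0.705, 1.01 and 0.482 in control and 1.11, 1.58 and 1.1 in Prp3-RNAi. It was higher in all 3 pairs, by 0.66, 0.64 and 1.20 on the log2 scale, and the groups did not overlap. The ratio of qvr to Sh was 4.93, 3.75 and 3.7 in control and 3.36, 3.08 and 2.78 in Prp3-RNAi, lower in all 3 pairs. Relative to na, unc79 went from 6.7 ± 0.576 to 4.33 ± 1.2 and Nlf-1 from 5.54 ± 0.763 to 4.04 ± 0.406 (SD, n = 3 each). The ratio of Hk to Sh was 0.661 ± 0.0776 in control and 0.589 ± 0.0185 in Prp3-RNAi, a gap barely open between the closest libraries (0.615 and 0.61). These 5 ratios reached an exact two-sided permutation p-value of 0.1, the smallest that 3 against 3 libraries allow, and 0.24 after Benjamini-Hochberg adjustment over the 12. This test did not use the pairs. Because the ratios were chosen after the values had been seen, these p-values add no support of their own. qvr and Hk share the pore gene Sh, and unc79 and Nlf-1 share na. Their lower ratios therefore restate in part the higher values of Sh and na given above. Such ratios were not computed for other genes. The Hk to Sh ratio differed by only -0.01 and -0.09 on the log2 scale in pairs 1 and 2, and by -0.38 in pair 3. The other 7 ratios, all 5 to para among them, overlapped between groups.

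**Figure D5:**
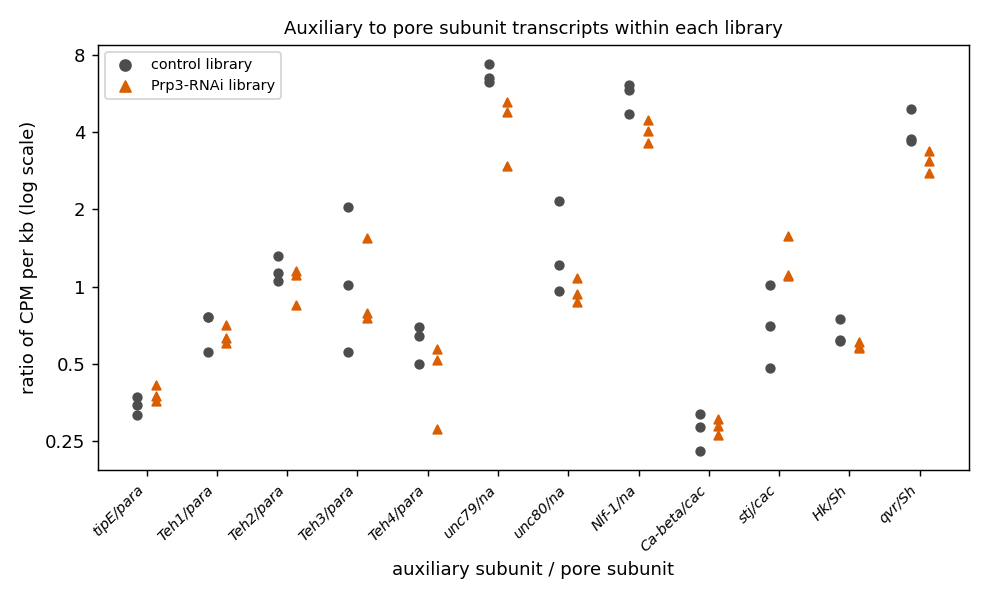
Ratio of auxiliary to pore subunit transcripts (CPM per kb, log scale) for 12 pairs of genes in each control library (circles) and Prp3-RNAi library (triangles). The stj/cac ratio is higher in every Prp3-RNAi library than in any control library, and unc79/na, Nlf-1/na, Hk/Sh and qvr/Sh are lower.

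Channel genes are long and rich in introns, a property the choice of members did not use. Their median span was 17718 bp against 2870 bp over 8670 tested genes with an annotation, and the median of the most introns in any transcript was 15 against 3. Of the 23 tested members with 10 or more introns, 21 had a fold change above 0, with a median log2 fold change of 0.19. Over all 797 tested genes of that kind 64.6% were above 0, with a median of 0.10. The 12 tested members with fewer introns had 6 above 0 and a median of -0.02, near the 49.4% and -0.01 of all 7873 tested genes of that kind. These 12 include the low-level members Irk1, Irk2, Irk3 and iav, all below 0 with an SE of 0.76 to 2.10. The others below 0 were Teh4 and qvr, and all 6 above 0 were at higher levels. Intron number and level were not separated in this split, which was not among the planned descriptions. Across the 26 members at 50 CPM or more on average over all libraries, fold change and intron number had Pearson's r of 0.23 and Spearman's rho of 0.18. Over all 35 tested members these were 0.34 and 0.35, and over the 8670 annotated tested genes 0.03 and 0.07. With log2 span they were 0.51 and 0.44 over the 35 members, 0.20 and 0.26 over those 26, and -0.00 and 0.02 over all. With log2 mean CPM they were 0.57 and 0.26, 0.11 and 0.16, and -0.06 and -0.09 in the same order. Genes are not independent replicates, and all points share the same 6 libraries.

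By position, 4 of the 6 members at an unadjusted p below 0.05 (stj, Ih, Elk and NaCP60E) lie on chromosome arm 2R, which holds 10 members, 9 of them tested. The other 2 (Sh and Ca-alpha1T) lie on the X, with 9 tested members. Over all tested genes of 2R 4.86% were higher at that level, and over those of the X 4.44%, both close to the 4.71% of all tested genes. On arms 2L, 3L and 3R, 0 of the 4, 7 and 6 tested members were higher at that level. Of all tested genes there, 4.34%, 4.96% and 4.54% were. The labels place the driver and the hairpin in the position that by convention stands for chromosome 2, so the origin of that chromosome differs between the groups by design, and an effect of that origin cannot be told apart from one of the hairpin. The genotypes given do not state the origin of the X and the other chromosomes, which may differ between the groups as well.

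Neighbouring gene lists were compared to place the channel values. Among 34 other channel genes, 29 of them tested, 2 were higher and 2 lower at an unadjusted p below 0.05, where 4.71% and 5.27% of all tested genes were. The higher ones were the two-pore potassium channel genes Task6 (log2 fold change 0.48, SE 0.13) and Task7 (0.43, SE 0.15). The lower ones were the chloride channel gene ClC-b (-0.48, SE 0.17) and the two-pore channel gene sand (-7.41, SE 0.71), which went from 35.2, 31.6 and 21 CPM to 0.465, 0.0952 and 0.0685 CPM. The list median was 0.14. Ion pumps and transporters, 19 tested of 20, had a median of -0.10, and only the sodium-driven anion exchanger Ndae1 (0.69, SE 0.24) reached that level. Among channel partners and regulators, 20 tested of 23, Slob (0.46, SE 0.12), which binds Slowpoke, Fife (0.29, SE 0.10), an active zone protein, and Adar (0.31, SE 0.12), which edits RNAs of many channels, were higher. In the same list 14-3-3epsilon (-0.22, SE 0.07) and Nedd4 (-0.39, SE 0.13) were lower. That list had 13 of 20 above 0 and a median of 0.11. In these 3 lists edgeR called 0 genes at a BH-adjusted p below 0.05, with the smallest, 0.0838, for sand.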

How the data were processed

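Per the submitters' processing notes, Trim Galore 0.6.7, STAR 2.7.0a and the build dm6 were used; their roles, the counter and the annotation are not given in the sources used here. The deposited values were whole-number counts per gene and library, unnormalized, in a column for both strands together (used) and 2 strand columns. Lines naming no gene took 18.5% to 24.4% of reads and were left out. Gene structure and coordinates came from Ensembl's BDGP6.54 annotation, which has dm6 coordinates and matched 17772 of 17868 symbols and all 37 members.

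Genes passing filterByExpr (min.count 10, min.total.count 15) were tested with edgeR 4.0.16 in R 4.3.3 (glmQLFit and glmQLFTest, TMM scaling, two-sided, Benjamini-Hochberg over 8708 genes), with the replicate number as a block because the titles state pairs. Deviations from group means correlated at 0.0458, 0.266 and 0.236 within pairs and at -0.252 to 0.0203 otherwise. SE is the log2 fold change over the square root of F. Pair differences use log2 CPM with a prior count of 2. On simulated counts the fit called 52.4% of genes changed by 1 on the log2 scale, and 4.07% of unchanged genes had an unadjusted p below 0.05. Those counts had no pair effect, and their spread depended only on expression level. They therefore do not show how the fit performs on these libraries. Alternatives used DESeq2 1.42.0 and limma 3.58.1, among others. Members and lists were chosen with earlier results of these data known. Every member is named. Values in every library were given for those at an unadjusted p-value under 0.05 and the highest per length in each class, and for others after their values were seen. From each comparison list those at that level were named. RIMBP and Kcnip of the list of partners matched no symbol. With 6 libraries, spread between them, not counting error, limits precision.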

Additional observations from a re-analysis of the deposited data

How the results depend on the processing

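Over the 10 alternatives the median log2 fold change of the tested members stayed between 0.14 and 0.18, and every member at an unadjusted p-value under 0.05 in any of them (3 to 9 of them) was higher in Prp3-RNAi. Without the replicate block the members at that level went from 6 to 3 (Elk, stj and Ca-alpha1T); leaving out a pair gave 3 to 7, with 3 (Ih, stj and Ca-alpha1T) without pair 2. The number of members called went from 0 to 3 with DESeq2. Over all genes tested, the number called went from 0 to 8 without the replicate block, 412 with DESeq2, 4 with limma-voom, 11 with a filter of at least 1 count and 4 with at least 50 counts in 3 libraries, and to 0 to 4 when a pair was left out. The number at an unadjusted p-value under 0.05 went from 869 to 421 without the block, 1426 with DESeq2 and 529 to 756 when a pair was left out. Prp3 was called by DESeq2 (log2 fold change -1.17, adjusted p-value 0.00665), and over all alternatives its log2 fold change ran from -1.35 to -1.02.

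Signs turned for members close to 0 or of low level. The log2 fold change of unc79 was -0.01 with RLE size factors, with DESeq2 and with the sum of the strand columns, and that of Irk2 was 0.01 without the block. When a pair was left out, the log2 fold change ran from -0.06 (without pair 3) to 0.12 for unc79, with -0.03 without pair 2. It ran from -0.08 (without pair 3) to 0.31 for Teh3, from -0.48 to 0.04 (without pair 1) for Teh4 and from -0.10 (without pair 3) to 0.37 for unc80. For cac and Shaw it ran from -0.02 to 0.10 and from -0.09 to 0.30, lowest without pair 2. For eag it ran from -0.16 (without pair 1) to 0.17 and for Irk1 from -0.64 to 0.09 (without pair 2). For TrpA1 it ran from -1.83 to 1.20 (without pair 3), with 0.04 without pair 2. What set these turns was not tested.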
